A study of Mus musculus with 7 samples.

Results

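The data described here concern 8 cytoskeletal genes of CD8+ T cells exposed to leukemic vesicles: the plastins Pls1, Pls3 and Lcp1, the myosin regulatory light chain gene Myl10, the microtubule gene Map6, the neurofilament gene Ina, the Shroom family gene Shroom3 and the actin regulator gene Eps8. They are 8 of the 55367 genes in the count table and were found by symbol. Of the 8 genes, 7 averaged 5 or more counts per library and were among the 12623 genes tested, and Pls3 was below that minimum. The genes were chosen on their fold changes in these same libraries, with Pls3 and Lcp1 added as paralogs of Pls1, so that their differences between the groups are given as a description and carry no test.

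Resting and activated T cells are shaped by actin filaments, microtubules and intermediate filaments. Actin-bundling proteins cross-link filaments at the contact with a target cell, myosin light chains regulate the motor that contracts them, and microtubules carry lytic granules to that contact.

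CD8+ T cells were sorted from spleens of Foxp3 YFP/cre mice, a regulatory T-cell reporter strain whose alleles are shared by all 7 libraries, and were kept with small extracellular vesicles (sEVs) at 100 µg/ml for 48 hours. Group sizes follow the labels, whereas the study's text gives them the other way round. The dose is that of the sample records, whereas the study's methods describe vesicle amounts set by those found in the respective spleens. Whether the vesicle amount differed between the groups cannot be told here, so that amount and source of vesicles may not be separable. LME-sEVs (3 libraries) were isolated from spleens of leukemic Eμ-TCL1 mice, a model of chronic lymphocytic leukemia in which immunoglobulin heavy-chain regulatory elements drive the TCL1 transgene in B cells. HCME-sEVs (4 libraries) came from spleens of healthy mice, and no library without vesicles was analysed here. The methods describe adult mice of both sexes, matched within an experiment, and culture on anti-CD3 with CD28 costimulation and IL2. Nothing in the labels says whether libraries came from separate animals or cultures, so that any spread between libraries may be technical.

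Expression was measured by 3′ RNA-seq with molecular identifiers, in which a count stands for 1 captured transcript end and gene length does not enter. Totals lay between 3689831 and 5030522 counts per library, and levels are given as CPM, that is, counts scaled to a common library size with TMM normalization. The smallest level taken as shown, 3 counts, corresponded to between 0.580 and 0.805 CPM. Cd8a had between 1361 and 2167 counts, while Cd4 had at most 3 and Foxp3 at most 1. Counts of replicates differed by more than counting noise in each pair, the chi-square divided by its degrees of freedom ranging from 2.19 to 6.66. In bulk samples, fewer cells of a type and less RNA per cell cannot be told apart. Of the 12623 tested genes, 1131 (8.96%) passed an FDR of 0.05 in the edgeR quasi-likelihood test with Benjamini-Hochberg adjustment, with 473 (3.75%) higher and 658 (5.21%) lower after LME-sEVs. When libraries were scaled by their totals only, 612 of 1077 such genes were higher and 465 lower, so that the share of higher genes was 56.8% in place of 41.8%. The further requirement of a log2 fold change beyond 1 in either direction left 162 differentially expressed genes (DEG; 1.28%). Genes past the FDR threshold numbered 723 without HCME-sEV library 2, 391 without LME-sEV library 2 and 458 without LME-sEV library 3, and DEG numbered 83 and 90 without LME-sEV library 2 or 3.

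Plastins bundle actin filaments through paired calponin-homology domains. Lcp1 encodes L-plastin of leukocytes, Pls1 encodes the plastin first known from intestinal microvilli, and Pls3 encodes the plastin of most solid tissues. On GRCm38, Pls1 lies on the minus strand at chr9:95752642-95845311, Pls3 on the minus strand at chrX:75785654-75875182, and Lcp1 on the plus strand at chr14:75131101-75230842. The 250 bases before a RefSeq transcription start of each plastin and of Myl10 are printed because these genes had different patterns in the same cells: a leukocyte gene with nearly the same level in all libraries, a related gene that was higher after LME-sEVs, another at the limit of detection, and a light chain gene that was lower. Sequences were taken from RefSeq on GRCm38.p6, 5′ to 3′ on the strand of the gene, and CG dinucleotides are in capitals.
Lcp1, chr14:75130873-75131122, plus strand: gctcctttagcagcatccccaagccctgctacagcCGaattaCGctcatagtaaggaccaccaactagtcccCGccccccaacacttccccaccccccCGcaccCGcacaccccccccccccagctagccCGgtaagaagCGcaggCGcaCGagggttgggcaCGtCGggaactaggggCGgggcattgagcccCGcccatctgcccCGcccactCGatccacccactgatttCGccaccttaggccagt
Pls1, chr9:95845280-95845529, minus strand: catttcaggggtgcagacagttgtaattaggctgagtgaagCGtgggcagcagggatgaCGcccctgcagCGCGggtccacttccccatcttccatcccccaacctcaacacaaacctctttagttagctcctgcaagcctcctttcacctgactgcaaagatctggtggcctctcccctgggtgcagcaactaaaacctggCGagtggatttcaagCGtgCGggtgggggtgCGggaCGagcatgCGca
Pls3, chrX:75875183-75875432, minus strand: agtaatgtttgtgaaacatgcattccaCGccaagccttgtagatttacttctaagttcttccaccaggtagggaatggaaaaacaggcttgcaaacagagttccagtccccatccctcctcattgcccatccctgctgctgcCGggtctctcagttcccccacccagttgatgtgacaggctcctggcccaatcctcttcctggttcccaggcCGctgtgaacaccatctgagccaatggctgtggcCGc
Myl10, chr5:136692896-136693145, plus strand: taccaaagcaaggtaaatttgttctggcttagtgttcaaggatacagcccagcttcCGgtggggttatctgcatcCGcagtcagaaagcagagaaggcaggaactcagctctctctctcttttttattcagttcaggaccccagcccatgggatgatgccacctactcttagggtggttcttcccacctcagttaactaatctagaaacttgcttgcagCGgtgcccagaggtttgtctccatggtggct

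The Lcp1 window held 16 CG dinucleotides and 66.0% G or C. The Pls1 window held 10 and 58.0%, the Pls3 window 4 and 54.0%, and the Myl10 window 3 and 49.6%. Over 32851 such windows the medians were 6 CG dinucleotides and 52.4%. The printed windows of Lcp1 and Pls1 lay above both medians and that of Myl10 below both. This depends on the start chosen: another Lcp1 window held 3 CG dinucleotides and 41.6% G or C, and another Myl10 window 4 and 53.2%. RefSeq windows were found for 6 of the 8 genes (12 windows, since a gene can have several starts), and not for Map6 and Eps8. Searched on both strands, GGGCGG was found 4 times in the printed Lcp1 window and was not found in those of Pls1, Pls3 and Myl10, and 32.7% of all windows held it. CCAAT was found in the printed Pls3 window and in 33.8% of all windows. These matches also depend on the start chosen. Another Pls3 window held GGGCGG, another Myl10 window held CCAAT, and another Lcp1 window held neither. CACGTG (6.02% of all windows), TATAAA (12.4%) and the CArG box by name (1.47%) were in none of the 12 windows. A match describes letters in a window and does not show binding.

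Lcp1 was the most abundant of the 8 genes and had nearly the same level in all libraries. Its level was 752, 740, 760 and 778 CPM in HCME-sEV libraries 1 to 4 and 767, 764 and 763 CPM in LME-sEV libraries 1 to 3. The groups overlapped, with means of 757 ± 16.1 (SD, n = 4) and 765 ± 2.06 CPM (SD, n = 3). The fitted log2 fold change, LME-sEVs over HCME-sEVs, was 0.014 with a standard error of 0.068 and a 95% interval from -0.13 to 0.16. Mean CPM placed Lcp1 above 98.9% of the tested genes.

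Pls1 had few transcripts in cells given HCME-sEVs and was higher in every library given LME-sEVs. Its counts were 9, 1, 8 and 4 in the HCME-sEV libraries and 22, 24 and 28 in the LME-sEV libraries. In CPM these were 2.16, 0.253, 2.13 and 0.928 against 5.90, 5.38 and 5.41. The groups did not overlap, and HCME-sEV library 2 lay below the limit of 3 counts. Means were 1.37 ± 0.939 (SD, n = 4) and 5.56 ± 0.293 CPM (SD, n = 3). The ratio of these means was 4.07, and the fitted log2 fold change was 2.005 with a standard error of 0.406. From the summed counts, 22 against 74, the ratio scaled to library size had an interval from 2.503 to 6.89 that covers counting error only. The coefficient of variation was 68.6% among the HCME-sEV libraries and 5.26% among the LME-sEV libraries. The chi-square divided by its degrees of freedom was 2.59 and 0.0618 in turn. The LME-sEV counts thus differed by less than counting noise gives on average, and their small spread does not show a more uniform level.

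Pls3 lay near the limit of detection. Its counts were 1, 4, 0 and 5 in the HCME-sEV libraries and 8, 5 and 11 in the LME-sEV libraries, or 0.240, 1.01, 0 and 1.16 CPM against 2.15, 1.12 and 2.13 CPM. The groups overlapped, since LME-sEV library 2 lay below HCME-sEV library 4. HCME-sEV libraries 1 and 3 were below 3 counts, and the count of 0 in library 3 allows a level of up to 0.798 CPM. The summed counts, 10 against 24, gave a scaled ratio of 2.91 with a counting interval from 1.34 to 6.81.

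**Figure D1:**
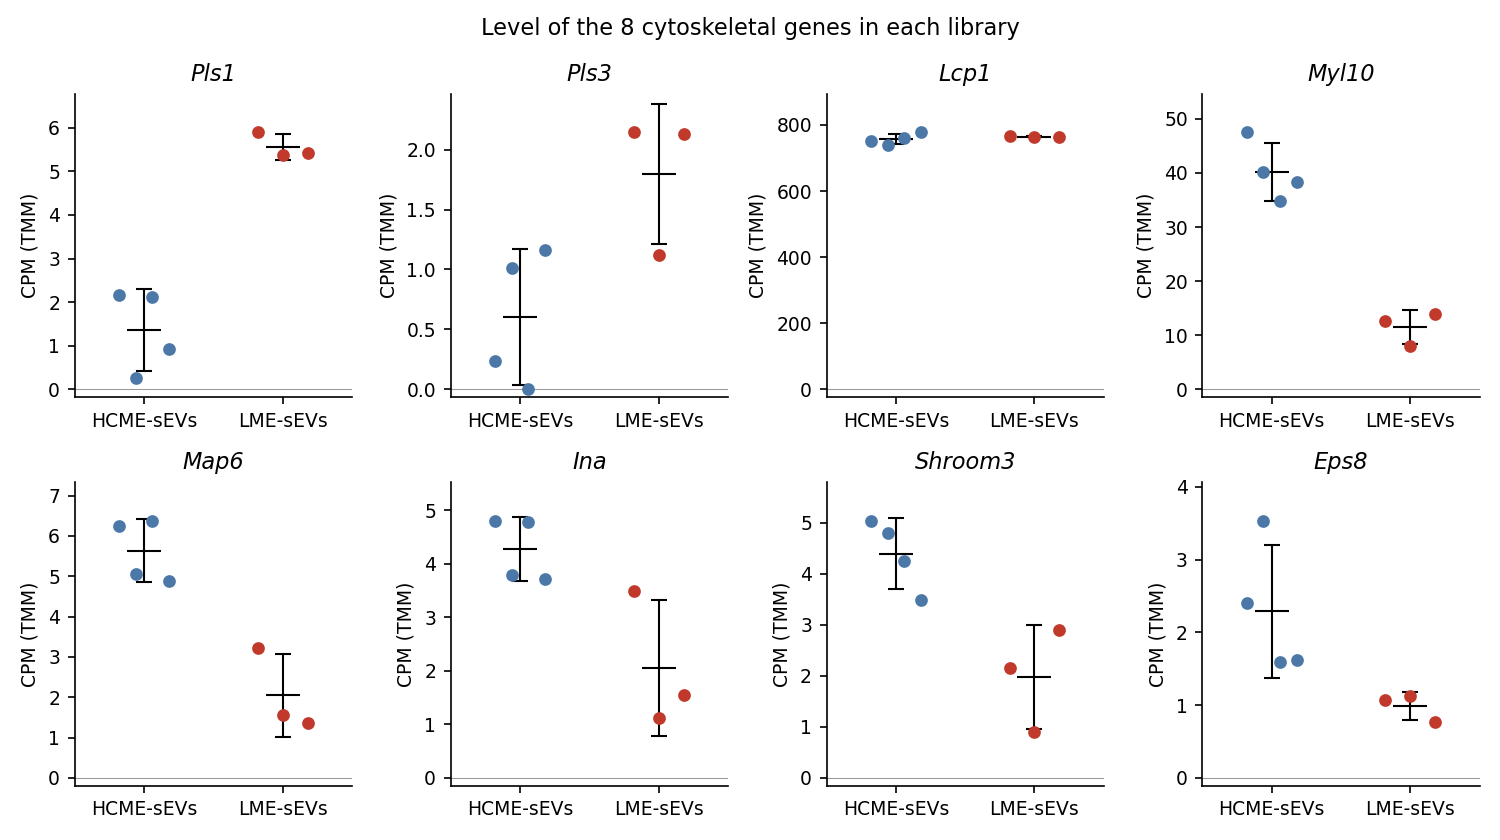
Level of each of the 8 genes in CPM (vertical axes, linear from 0 and set for each gene) in HCME-sEV (blue, n = 4) and LME-sEV libraries (red, n = 3); points are libraries, horizontal bars are means and error bars are SD. The 3 LME-sEV libraries lay between 5.38 and 5.90 CPM for Pls1 and between 8.06 and 13.9 CPM for Myl10, outside the HCME-sEV libraries, whereas those of Pls3 and Lcp1 overlapped.

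Within the plastins, counts remained almost entirely those of Lcp1, with a mean share of 99.7% after HCME-sEVs and 99.0% after LME-sEVs. Pls1 made up 0.180% of plastin counts in the HCME-sEV libraries (from 0.0341% to 0.286%) and 0.720% in the LME-sEV libraries (from 0.698% to 0.761%). Pls3 made up 0.0792% and 0.233% in turn. The sum of plastin transcripts was thus set by Lcp1 in both groups. These shares compare counts within a library and do not depend on the scaling between libraries.

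Myl10 encodes a regulatory light chain of myosin that was first described in precursor lymphocytes, and it lies on the plus strand at chr5:136693146-136701094. Among the 8 genes it had the most counts of those lower after LME-sEVs. Its counts were 198, 159, 131 and 165 in the HCME-sEV libraries and 47, 36 and 72 in the LME-sEV libraries. In CPM, 47.5, 40.2, 34.8 and 38.3 stood against 12.6, 8.06 and 13.9, and the lowest HCME-sEV library was well above the highest LME-sEV library. Means were 40.2 ± 5.37 (SD, n = 4) and 11.5 ± 3.07 CPM (SD, n = 3), a ratio of 3.49 of HCME-sEVs over LME-sEVs. The fitted log2 fold change was -1.80 with a standard error of 0.165.

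The other 5 tested myosin light chains had smaller fold changes, in either direction. Myl12a, a regulatory light chain of nonmuscle myosin and the most abundant of the 12 light chains, averaged 417 ± 43.6 CPM (SD, n = 4) and 443 ± 39.7 CPM (SD, n = 3), with a log2 fold change of 0.09 (FDR = 0.609, edgeR quasi-likelihood test with Benjamini-Hochberg adjustment). Myl6, an essential light chain, had a log2 fold change of -0.24 (FDR = 0.242 in the same edgeR test). Myl12b had 0.14 (FDR = 0.775 by edgeR), Mylpf 0.40 (FDR = 0.234 by edgeR) and Myl4 0.64 (FDR = 0.131 by edgeR). None of these 5 passed the threshold in edgeR, and 1, Myl4, had an unadjusted p under 0.05. Myl10 made up 6.97% ± 1.32 of light chain counts in the HCME-sEV libraries (SD, n = 4) and 2.03% ± 0.619 in the LME-sEV libraries (SD, n = 3). Without Myl12a the shares were 24.5% and 8.82%.

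**Figure D2:**
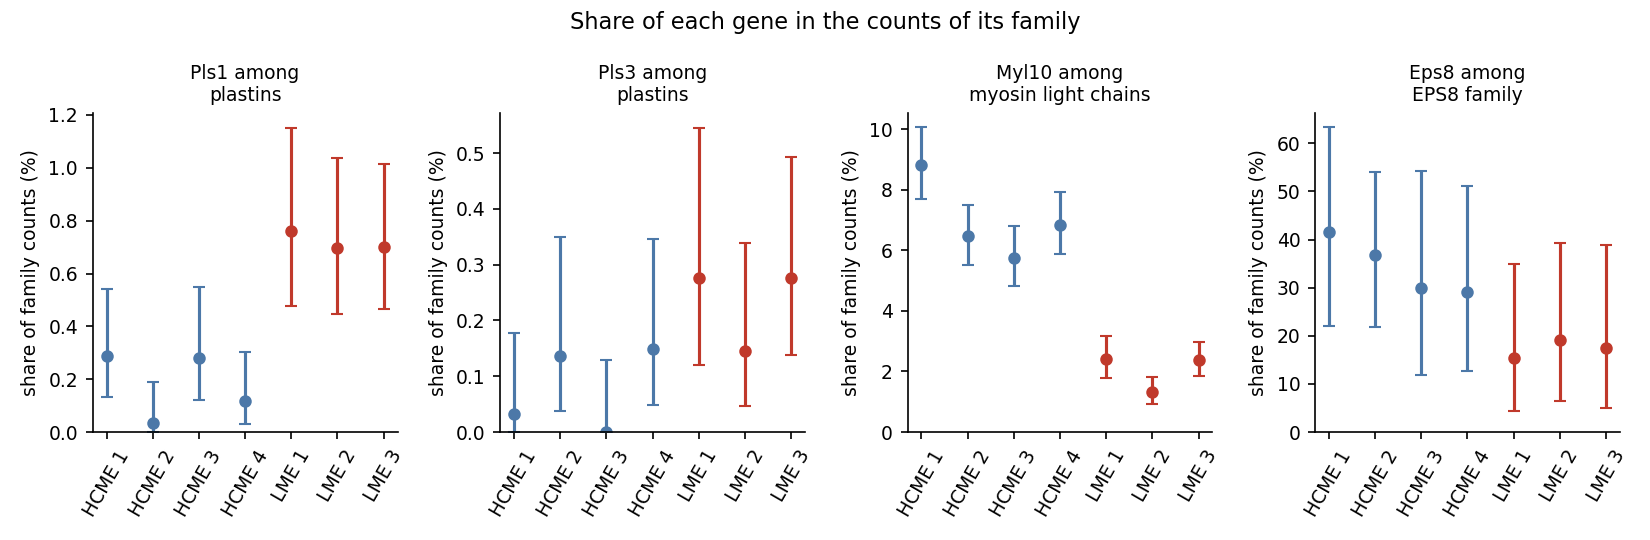
Share of Pls1 and Pls3 among plastin counts, of Myl10 among myosin light chain counts and of Eps8 among EPS8 family counts (vertical axes, percent, linear from 0) in each library, HCME-sEVs in blue and LME-sEVs in red. Bars are exact 95% binomial intervals for counting error, and Myl10 shares lay between 5.75% and 8.82% after HCME-sEVs and between 1.32% and 2.41% after LME-sEVs.

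Map6 encodes a protein that stabilizes microtubules against cold, and it lies on the plus strand at chr7:99267447-99337137. Its counts were 26, 20, 24 and 21 in the HCME-sEV libraries and 12, 7 and 7 in the LME-sEV libraries. In CPM, 6.24, 5.05, 6.38 and 4.87 stood against 3.22, 1.57 and 1.35, with no overlap and with LME-sEV library 1 nearest to the HCME-sEV libraries. Means were 5.64 ± 0.785 (SD, n = 4) and 2.05 ± 1.02 CPM (SD, n = 3), and the log2 fold change was -1.504 with a standard error of 0.343. Its closest relative, Map6d1, had 0 counts in every library. Map6 made up 0.348% of the counts of 37 microtubule-associated protein genes after HCME-sEVs and 0.122% after LME-sEVs.

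Ina encodes alpha-internexin, a neurofilament protein known from neurons, on the plus strand at chr19:47014698-47025327. Its counts were 20, 15, 18 and 16 in the HCME-sEV libraries and 13, 5 and 8 in the LME-sEV libraries. In CPM, 4.80, 3.79, 4.79 and 3.71 stood against 3.49, 1.12 and 1.55. The groups were separated only by the small gap between 3.71 CPM in HCME-sEV library 4 and 3.49 CPM in LME-sEV library 1. Means were 4.27 ± 0.603 (SD, n = 4) and 2.05 ± 1.26 CPM (SD, n = 3), and the log2 fold change was -1.10 with a standard error of 0.380. The first exon of Ina overlaps Nt5c2 on the opposite strand, which had 448 counts in all libraries together, and whether counting used the strand is not given in the sources used here.

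Vim and Nefh were far more abundant than Ina. Vim, the main intermediate filament of lymphocytes, averaged 645 ± 65.7 CPM (SD, n = 4) after HCME-sEVs and 494 ± 16.3 CPM (SD, n = 3) after LME-sEVs, with a log2 fold change of -0.38 (FDR = 0.00615, edgeR with Benjamini-Hochberg adjustment). It did not pass without LME-sEV library 2 (-0.36). Nefh, the heavy neurofilament gene, averaged 120 ± 9.72 CPM (SD, n = 4) and 84.0 ± 12.6 CPM (SD, n = 3) in turn, with a log2 fold change of -0.52 (FDR = 0.00293 in the same edgeR test). The other neurofilament genes had almost no counts, since Nefl was below 3 counts in every library and Nefm was at 0. Ina made up 0.561% of the counts of 19 intermediate filament genes outside the nucleus after HCME-sEVs and 0.344% after LME-sEVs.

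Shroom3 encodes an actin-binding protein of the apical cortex of epithelia, on the plus strand at chr5:92683435-92965318. Its counts were 21, 19, 16 and 15 in the HCME-sEV libraries and 8, 4 and 15 in the LME-sEV libraries. In CPM, 5.04, 4.80, 4.25 and 3.48 stood against 2.15, 0.896 and 2.90. The raw counts overlapped at 15, in HCME-sEV library 4 and in the deepest library, LME-sEV library 3, while the CPM did not overlap. Means were 4.39 ± 0.693 (SD, n = 4) and 1.98 ± 1.01 CPM (SD, n = 3), and the log2 fold change was -1.12 with a standard error of 0.371. Shroom3 held a mean of 93.3% of Shroom family counts after HCME-sEVs and 87.8% after LME-sEVs, and none of the other 3 family genes had more than 2 counts in a library.

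Eps8 encodes a protein that caps and bundles actin filaments and takes part in Rac signaling, on the minus strand at chr6:137477245-137654876. Its counts were 10, 14, 6 and 7 in the HCME-sEV libraries and 4, 5 and 4 in the LME-sEV libraries. In CPM, 2.40, 3.54, 1.60 and 1.62 stood against 1.07, 1.12 and 0.773, without overlap but within a few counts of each other. Means were 2.29 ± 0.911 (SD, n = 4) and 0.989 ± 0.188 CPM (SD, n = 3), and the log2 fold change was -1.20 with a standard error of 0.480. Eps8l1, the family member with the most counts, had 14, 24, 14 and 16 counts after HCME-sEVs and 22, 21 and 19 after LME-sEVs. The log2 fold change of Eps8l1 was 0.15 (FDR = 0.821, edgeR quasi-likelihood test with Benjamini-Hochberg adjustment). Eps8 made up 34.4% of the counts of its family after HCME-sEVs and 17.3% after LME-sEVs.

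Of the 7 tested genes, 3 passed the FDR threshold and were also DEG (Pls1 higher, Myl10 and Map6 lower), beside 8.96% and 1.28% of all tested genes. Libraries of the groups did not overlap in CPM for 6 of the 7, the same 3 and Ina, Shroom3 and Eps8, beside 20.3% of all tested genes. These counts follow from how the genes were chosen and are given with no reading. The order of levels after HCME-sEVs was Lcp1, Myl10, Map6, Shroom3, Ina, Eps8, Pls1 and Pls3. Within it the libraries of Map6 and Shroom3, of Shroom3 and Ina, of Shroom3 and Eps8, of Eps8 and Pls1, and of Pls1 and Pls3 overlapped. After LME-sEVs, Pls1 followed Lcp1 and Myl10, while Ina, Map6 and Shroom3 had means between 1.98 and 2.05 CPM and overlapped with each other and with Pls3. Mean levels over all libraries placed Myl10 above 55.7% of tested genes, Map6 above 20.9%, Shroom3 above 18%, Ina above 17.9%, Pls1 above 17.1% and Eps8 above 7.36%, so that all but Lcp1 and Myl10 were among the less abundant genes.

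**Figure D3:**
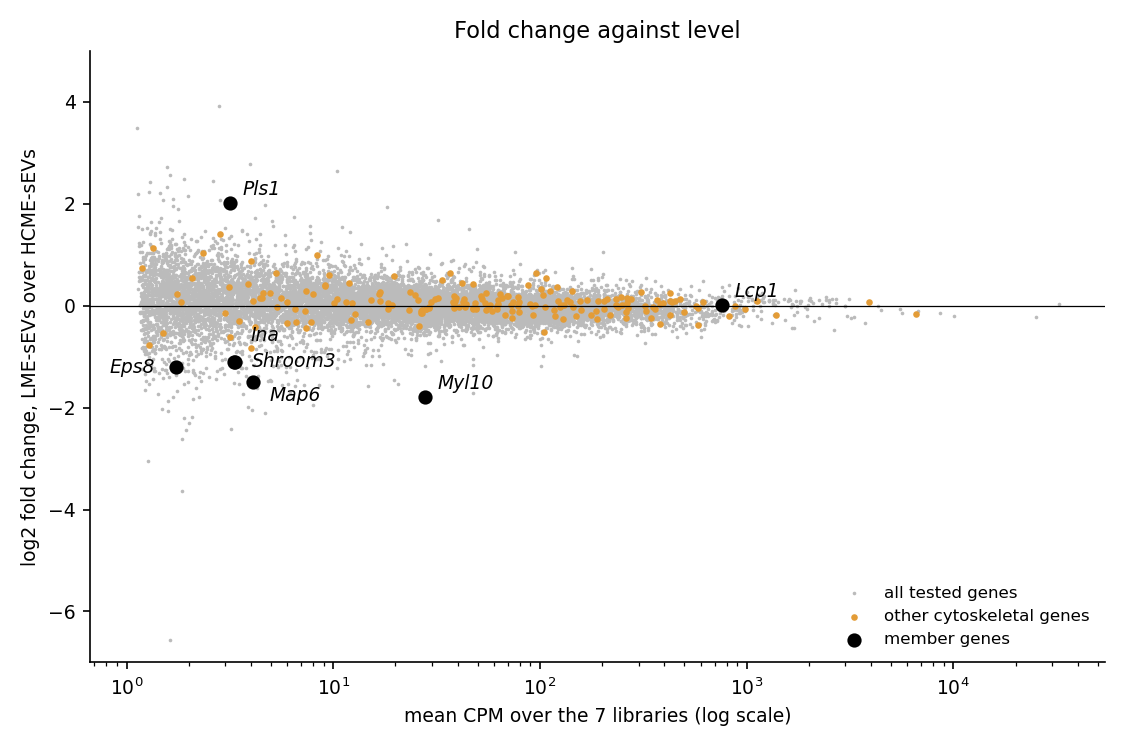
Log2 fold change, LME-sEVs over HCME-sEVs (vertical axis), against the mean CPM over the 7 libraries (horizontal axis, log scale) for 12623 tested genes (gray), 192 other cytoskeletal genes (orange) and the 7 tested members (black). Lcp1 lies near 0 among abundant genes, Myl10 at -1.80 among genes of middle level, and the other 5 among low genes (Ina and Shroom3 nearly coincide), where fold changes of all genes spread most.

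**Figure D4:**
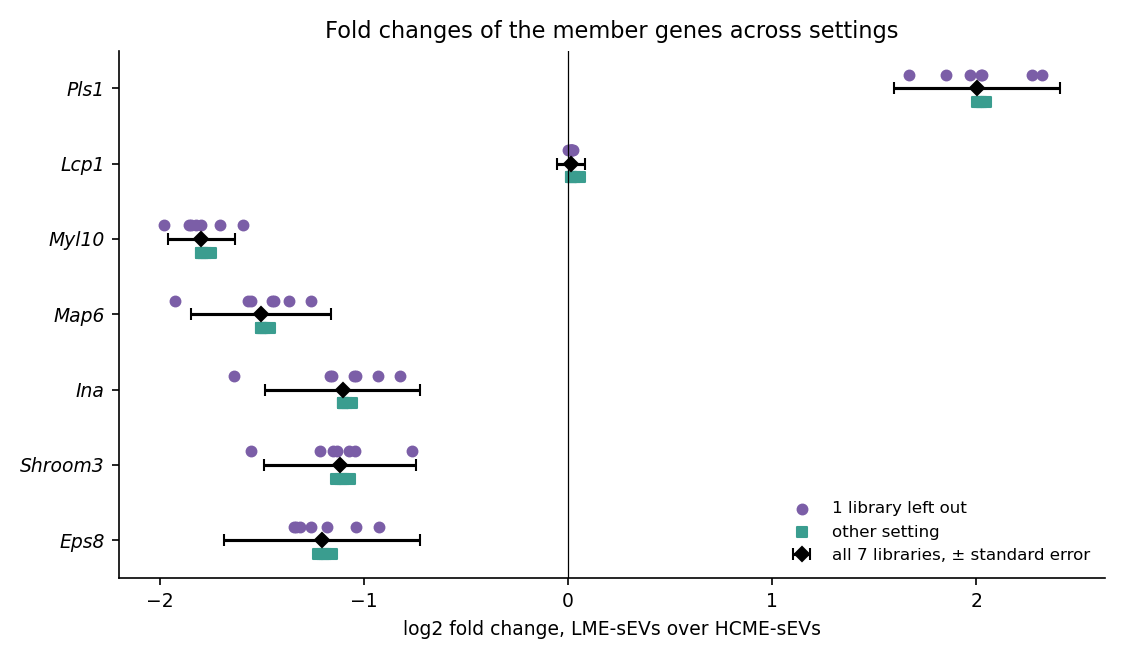
Log2 fold change, LME-sEVs over HCME-sEVs (horizontal axis), of the 7 tested members with all libraries (black diamonds, bars are standard errors), with 1 library left out (violet circles) and under other normalizations, filters or the DESeq2 test (green squares). Pls1 stayed between 1.67 and 2.32 and Myl10 between -1.98 and -1.59 when 1 library was left out.

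Leaving out each library in turn gave log2 fold changes from 1.67 to 2.32 for Pls1 and from -1.98 to -1.59 for Myl10. Map6 lay between -1.93 and -1.26, and without LME-sEV library 2 (-1.37) or LME-sEV library 3 (-1.26) it was not among the genes past the FDR threshold. Ina lay between -1.64 and -0.82, with the lower value without LME-sEV library 1, the only fit run in which Ina was past the FDR threshold. Shroom3 ranged from -1.55 to -0.77 and Eps8 from -1.34 to -0.93. These ranges describe the fits and, since the genes were chosen on the same libraries, give no test of them.

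Beyond these 8 genes, 279 cytoskeletal genes in 14 lists by role were examined, of which 192 were tested. Of these, 15 were higher (7.81%, beside 3.75% of all tested genes) and 4 lower (2.08%, beside 5.21%), and 173 did not pass. The number that passed, 19, was 10 without HCME-sEV library 2, 6 without LME-sEV library 2 and 8 without LME-sEV library 3. The median log2 fold change was 0.04 over the lists and 0.01 over all tested genes. Only 1 of the 19, Iffo1, was also a DEG.

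Among actin bundlers other than plastins, Actn1, which cross-links actin at adhesions, averaged 77.7 ± 16.5 CPM (SD, n = 4) after HCME-sEVs and 121 ± 10.7 CPM (SD, n = 3) after LME-sEVs, a log2 fold change of 0.64 (FDR = 0.00231, edgeR with Benjamini-Hochberg adjustment). Actn1 passed in every fit run. Its counts were 406 to 669 in the LME-sEV libraries.

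Among genes that cap, sever or turn over actin, the process in which Eps8 takes part, 5 of 29 were higher and 0 lower in edgeR. These shares, 17.2% and 0%, stood beside 3.75% and 5.21% of all tested genes. Of the 29, 6 passed with the DESeq2 test, which 884 of all 12623 tested genes passed. Among the 6 was Capza2, a subunit of the actin capping protein named after its values were seen. Capza2 had a log2 fold change of -0.26 and was just short of the threshold in edgeR (FDR = 0.0505). Gsn, which severs filaments, had a log2 fold change of 0.99 (FDR = 0.0283, edgeR), but its groups overlapped and LME-sEV library 3, with 89 counts, stood above 38 and 33 in the other two. Without that library its log2 fold change was 0.55 and did not pass, and it did not pass without HCME-sEV library 1 (0.84) or 2 (0.90) either. The phosphatase gene Ssh1, the coronin gene Coro7 and, named after their values were seen, Ssh2 and the thymosin gene Tmsb10 had log2 fold changes between 0.27 and 0.44. Each of these 4 lost the threshold without HCME-sEV library 2 or LME-sEV library 2 (0.38 for Ssh1 in both, 0.37 and 0.41 for Coro7, 0.27 and 0.26 for Ssh2, 0.30 and 0.26 for Tmsb10). Without LME-sEV library 3 the threshold was lost for Ssh1 (0.46), Ssh2 (0.30) and Tmsb10 (0.23), without HCME-sEV library 1 for Ssh2 (0.23) and Tmsb10 (0.24), without HCME-sEV library 4 for Tmsb10 (0.25) and without LME-sEV library 1 for Ssh2 (0.28). Of the 5 tested partners and relatives of Eps8, 0 passed in edgeR or with the DESeq2 test, and 0 had an unadjusted p under 0.05 in edgeR.

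No gene passed among 12 actins and Arp2/3 subunits, 18 WASP and WAVE nucleation promoters, 11 myosin light chains and their kinases and 15 myosin heavy chains. At an unadjusted p under 0.05 in edgeR these lists held 2, 1, 2 and 1 genes in turn, and with the DESeq2 test 0 passed. Over all 12623 tested genes, 1131 passed in edgeR and 2864 had an unadjusted p under 0.05. Among 9 formins, Inf2 rose with a log2 fold change of 0.64 (FDR = 0.00674, edgeR). Of 16 cortex linkers Evl rose (0.37). Inf2 passed in every fit run, whereas Evl did not pass without LME-sEV library 2 (0.30), LME-sEV library 3 (0.34) or HCME-sEV library 2 (0.36). The most abundant gene of each list described here, Vim and the untested Shroom1 apart, had a log2 fold change between -0.18 (Tuba1b) and 0.18 (Pik3r1), and Actb, the main actin gene, had -0.17. None of these genes passed.

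Among 26 tested microtubule-associated protein genes other than Map6, 2 were higher (7.69%, beside 3.75% of all tested genes), namely Dclk1 (0.57) and Map1lc3b (0.32). None were lower, beside 5.21% of all tested genes. Of 13 tubulins, Tubb2b was higher (0.53) and Tuba4a lower (-0.37). Dclk1 did not pass without HCME-sEV library 1 (0.44), LME-sEV library 2 (0.57) or LME-sEV library 3 (0.49), and Map1lc3b did not pass without HCME-sEV library 2 (0.26) or any 1 of the LME-sEV libraries (0.31 to 0.34). Tuba4a did not pass without LME-sEV library 2 (-0.34) or 3 (-0.33), and Tubb2b passed in every fit. Of 8 tested intermediate filament and lamin genes, the list of Ina, 3 were lower (37.5%, beside 5.21% of all tested genes). These were Nefh, Vim and, named after its values were seen, Lmnb1 (-0.25). Nefh passed in every fit, Vim in all but that without LME-sEV library 2 (-0.36), and Lmnb1 lost the threshold without any 1 of 5 libraries (all but HCME-sEV libraries 1 and 4; -0.26 to -0.23), with upper quartile (-0.23) or library size (-0.20) scaling and with no filter (-0.24). Iffo1 was higher in this list, with 10, 9, 3 and 5 counts after HCME-sEVs and 15, 16 and 29 after LME-sEVs, a log2 fold change of 1.40 (FDR = 0.0267, edgeR). Iffo1 did not pass without LME-sEV library 2 (1.53) or 3 (1.17), without HCME-sEV library 3 (1.19) or 4 (1.26), or with the DESeq2 test (1.41). The relatives of Shroom3 had too few counts to be tested.

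**Figure D5:**
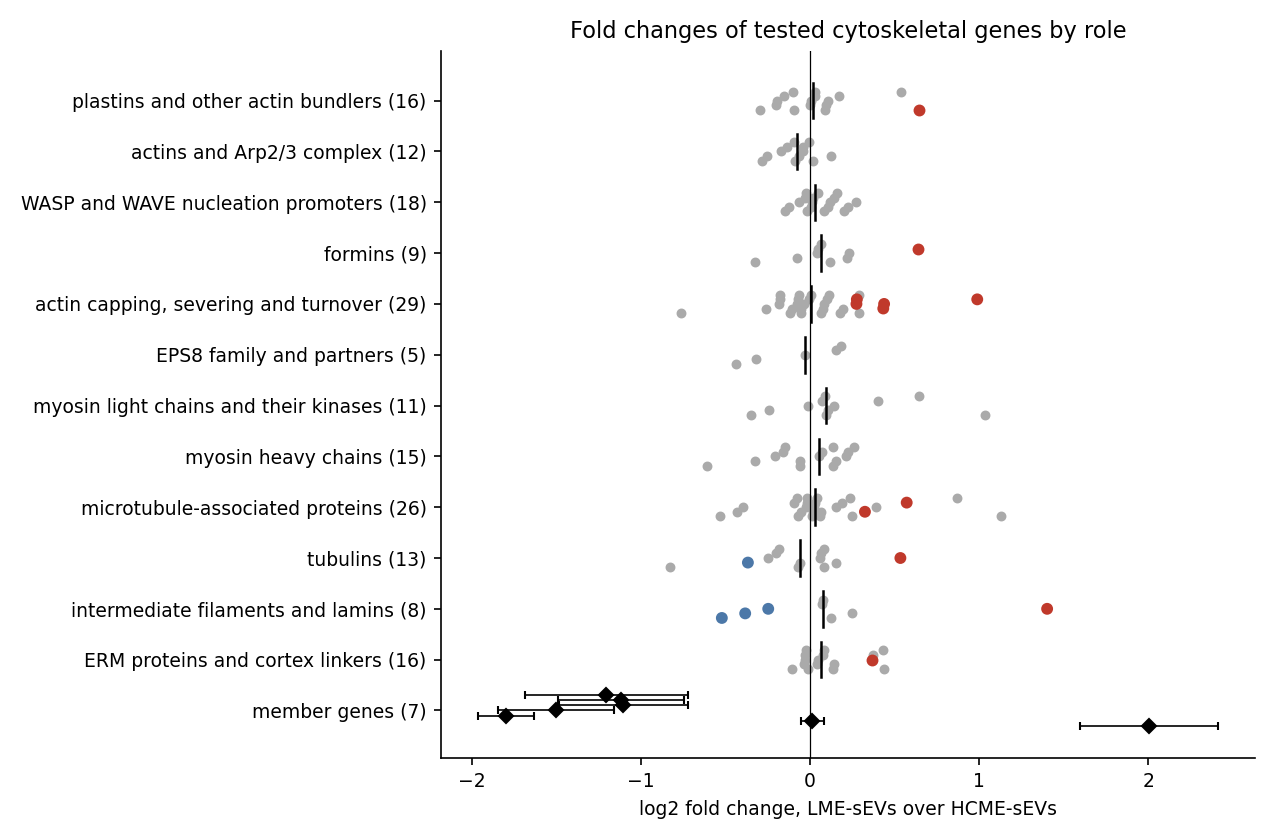
Log2 fold change, LME-sEVs over HCME-sEVs (horizontal axis), of tested cytoskeletal genes in the lists described (rows, number of genes in brackets), with genes past an FDR of 0.05 in red where higher and in blue where lower, others in gray and the median of each row as a black line. Black diamonds in the lowest row are the 7 tested members with standard errors, which were chosen on their fold changes and run from -1.80 (Myl10) to 2.005 (Pls1). The other genes run from -0.83 to 1.40.

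The genes whose log2 CPM followed each member most closely over the 7 libraries, of 12622 compared, were Olfr432 and Hba-a1 for Pls1 (Pearson r of 0.99 for both), Txnrd1 and Otud6b for Myl10 (0.99 for both), Pola1 and Trib3 for Map6 (0.99 for both), and Pbx3 and Stim1 for Lcp1 (0.98 for both). An r above 0.95 was reached by 25 genes for Pls1, 113 for Myl10, 56 for Map6 and 7 for Lcp1. These points share libraries and the difference between the groups, and the values are descriptive. Among the members themselves, r was 0.96 for Map6 and Ina, 0.92 for Myl10 and Shroom3, and -0.88 for Pls1 and Eps8.

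Markers of other cells moved with the groups in part. Of the 8 erythroid and platelet markers, all tested, 3 were higher (Hba-a1, Pf4 and Ppbp), beside 3.75% of all tested genes. All 8 had a higher mean after LME-sEVs, but the most abundant globin gene, Hbb-bs, had a log2 fold change of only -0.01. The summed level of the 8 overlapped, with 74.7 to 182 CPM in the HCME-sEV libraries and 158 to 205 CPM in the LME-sEV libraries. For the 9 markers of basophils, mast cells and eosinophils, 3 of 7 tested were higher, with sums of 15.8 to 40.2 CPM and 37.7 to 61.8 CPM, which also overlapped. The 8 CD8 T-cell markers (2582 to 2714 and 2797 to 3150 CPM, 2 higher), the 8 B-cell markers (231 to 273 and 310 to 333 CPM, 1 of 4 tested higher, with Cd79a at no more than 2 counts) and the 4 CD4 T-cell and Treg markers (104 to 144 and 153 to 207 CPM, with Ctla4 the 1 tested and higher) did not overlap between groups. The CD4 T-cell and Treg sum was almost all Ctla4 (102 to 142 and 152 to 206 CPM). Cd4 had at most 3 counts, Foxp3 at most 1 and Cd40lg 3 to 5, and all of these overlapped between the groups. The B-cell sum was mostly Ighm (219 to 262 and 298 to 324 CPM). Both sums thus describe 1 gene each and do not show the presence of CD4 T cells, Tregs or B cells. Most myeloid, NK-cell and stromal and endothelial markers had too few counts to be tested. Of the 2 of 9 myeloid, 1 of 4 NK-cell and 2 of 6 stromal and endothelial markers that were tested, 0 passed in edgeR or with the DESeq2 test, with 0, 1 (Eomes) and 0 at an unadjusted p under 0.05 in edgeR in turn. The tested genes were Ly6c2 and Fcgr3, Eomes, and Col1a1 and Pecam1 in turn. Ly6c2 (537 to 688 CPM) and Eomes (158 to 198 CPM) stood far above the other markers of their lists. These results thus describe single genes and do not show whether myeloid or NK cells differed. The myeloid marker Itgam, not tested, had 0, 0, 0 and 1 counts in the HCME-sEV libraries and 6, 8 and 6 in the LME-sEV libraries, which did not overlap. Groups did not overlap for 20.3% of all tested genes. Every other myeloid marker overlapped between the groups. Of the 9 myeloid markers 7 had a higher mean after LME-sEVs, while Csf1r (0.662 and 0.660 CPM) and Cd14 (0.190 and 0.0894 CPM) did not. Cdh5 was at 0. With the DESeq2 test 2 of the basophil, mast cell and eosinophil markers and 0 of the erythroid and platelet markers passed. The part of these markers in the levels of the 8 genes was not tested.

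No transcript of another gene was near-identical to the last 300 bases of a member (at 95% identity over at least 200 bases), and no exon of another gene overlapped the last exon of a member. Besides Ina, exons of Lcp1 overlap Gm15628 and Gm15629 on the opposite strand, both with 0 counts, and Shroom3 overlaps 4932430I15Rik, which was not analysed here.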

How the data were processed

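CD8+ T cells were profiled by QuantSeq 3′ RNA-seq in 7 libraries, grouped by the labels. The deposited values are whole-number counts per gene, which the authors made without normalization: reads were trimmed with cutadapt 2.10, mapped to GRCm38 with STAR 2.5.3a, collapsed by UMI with UMI-tools 1.0.0 and counted with featureCounts of Subread 2.0.0, per the submitters' processing notes. The annotation release and strand setting are not given in the sources used here. Reads start at 3′ ends, so a level depends on the annotated end of a gene.

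The 12623 genes that averaged 5 or more counts per library were tested with edgeR 4.0.16 (TMM, glmQLFit, glmQLFTest, no covariate) in R 4.3.3, and p-values were adjusted over them by Benjamini-Hochberg. CPM used library totals times TMM factors, and correlations used log2 CPM with a prior count of 2. Fits were tested on simulated data. Intervals of shares are exact binomial at 95% and, like those of summed counts, cover counting error only. Positions come from GENCODE vM21 on GRCm38, 3′ ends were compared with blast 2.17.0, and figures used matplotlib 3.10.9.

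The 8 genes and the lists were chosen with earlier results of these data known. Other genes were named by a rule: in each list the most abundant gene and up to 3 genes past the FDR threshold with the largest fold change and a mean of at least 20 counts in the higher group, and the 2 genes closest to each member with that mean. Alternatives covered other normalizations, the filter on counts, DESeq2 1.42.0, the replicate number as a block and leaving out each library. The results of some listed genes are not reported here.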

Additional observations from a re-analysis of the deposited data

Results flagged for a closer look

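Among the 4 HCME-sEV libraries, single libraries were compared with the others by the gap to the nearest library over the range of the group, and set beside the 95% critical value of Dixon for 4 values. Of 53 groups of values, 4 lay above it, where chance gives about 1 in 20, or 2.65. None was a level or share of the 8 genes. HCME-sEV library 4 stood high for Cyfip2, a WAVE complex gene, with 321 CPM against 257 in the nearest library (ratio 0.951). HCME-sEV library 1 stood low for the formin gene Diaph1, with 223 against 268 CPM (ratio 0.850), and for the summed CD8 T-cell markers, with 2582 against 2692 CPM (ratio 0.830). The ratio of 1.0 for Shroom1 rests on 1 count in HCME-sEV library 3 (0.266 CPM) and 0 counts in the others. The LME-sEV group has too few libraries for this comparison, and the cause of these values was not tested.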

How the results depend on the processing

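Among the 8 genes and the other genes named by rule, no fold change past the threshold reversed its direction under the alternatives run. Leaving out 1 library gave 391 to 1305 genes past the FDR threshold (1131 with all libraries), with 723 without HCME-sEV library 2, 391 without LME-sEV library 2 and 458 without LME-sEV library 3. DEG numbered 83 to 184 in these fits (162 with all libraries), with 83 without LME-sEV library 2 and 90 without LME-sEV library 3. The cytoskeletal genes past the threshold numbered 6 to 19. The DESeq2 test gave 105 DEG, of which 104 were among the 162. The cause was not tested, though fewer libraries and another test were used. Other normalizations and filters kept each of these counts within 1.5 times its value, and moved the median log2 fold change of all genes to at most 0.06. For the other genes named by rule, 34 values lost the threshold. The values of the 8 genes and of the shares were compared with the spread between libraries alone, and 17 moved by more than it, mostly shares computed without the most abundant relative. The remaining 469 values of both kinds stayed on their side of the threshold or within the spread.

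The replicate numbers shared by the groups were not treated as pairs, since the labels do not say that they mark pairs. Deviations from the group means of same-numbered libraries correlated with r = 0.0721, 0.155 and 0.0267. Other pairs of libraries had r from -0.206 to 0.0803. The highest r, 0.155, was that of the libraries numbered 2, whereas LME-sEV library 1 correlated best with HCME-sEV library 3 (0.0803). These values do not decide whether the libraries were paired. With the replicate number as a block, 1454 genes passed the FDR threshold, 179 were DEG and 23 cytoskeletal genes passed, of which 18 were among the 19. Among the 8 genes the block gave log2 fold changes of 1.89 for Pls1, -1.81 for Myl10, -1.57 for Map6 and -1.25 for Shroom3. Shroom3 was past the FDR threshold with the block and in no other fit run. Of the other named genes, Iffo1 did not pass with the block (1.26).

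Depth limits Pls3, Eps8 and Pls1 after HCME-sEVs, where a library held few counts, and Pls3 was not tested.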
